A study of Mus musculus with 22 samples.

Results

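Late-passage *S6K1* KO mouse embryonic fibroblasts (MEFs) were compared with early-passage *S6K1* WT MEFs, to see which changes of serial passage were still present in cells that lack S6K1. The comparison holds 7 of the 22 MEF libraries of the series, which were chosen by their labels alone: 4 libraries of WT MEFs at passage 3 (early WT) and 3 libraries of *S6K1* KO MEFs at passage 8 (late KO). The MEFs came from mid-gestation embryos of C57BL/6 mice, without head and viscera, bred in heterozygosity for a whole-body *S6K1* deletion, WT and KO embryos were taken from the same mothers, and the cells were passaged every 4 d in 21% O2 with no other treatment. The labels do not say which libraries share a mother or an embryo, so *P* values measure the spread between these libraries. No early-passage KO library was analysed here, so passage and genotype cannot be told apart within the comparison. Values are therefore given beside 4 libraries of late-passage WT MEFs (passage 8, late WT) of the same set, and beside the passage change in early and late WT MEFs (4 libraries each) of the *S6K1/S6K2* set, which shares no library with the *S6K1* set. That set also holds 3 libraries of passage 8 MEFs that lack both kinases (late DKO), used for a few values. Parents of the DKO embryos were heterozygous for *S6K1* and lacked *S6K2*, whereas the WT MEFs of that set came from WT mothers.

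S6K1, the product of *Rps6kb1*, is a kinase downstream of mTORC1 that phosphorylates ribosomal protein S6 and other factors of translation and growth, and S6K2 (*Rps6kb2*) is its closest relative. MEFs passaged in atmospheric oxygen stop dividing and enter senescence, a state in which *Cdkn2a* (p16Ink4a and p19Arf) is induced, cell cycle genes fall and cytokines, proteases and growth factors are secreted. MEF cultures are made from whole embryo bodies, so early cultures can also hold other cells of the embryo.

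The 7 libraries held between 13324851 and 17314832 counts. *Rps6kb1* (chr11:86498869-86544885, GRCm38.p6) checked the labels: it was at 90.0, 92.3, 86.7 and 91.6 CPM (counts scaled to a common library size) in early WT and at 22.3, 22.6 and 13.9 CPM in late KO. The groups did not overlap, and the level was 4.60-fold lower in late KO (log2 fold change -2.20, SE 0.19, edgeR adjusted *P* = 0.000144). Late WT libraries were at 55.1 to 73.6 CPM, above every late KO library, and the gene counts do not show which exons the remaining reads came from. *Rps6kb2* was at 13.6 to 18.6 CPM in early WT and 10.9 to 15.7 CPM in late KO (log2 fold change -0.37, adjusted *P* = 0.261). Y-linked genes were expressed in 2 of 4 early WT (replicates 1 and 3), 1 of 4 late WT and 3 of 3 late KO libraries. Sex was therefore unequal between the groups, and results are also given for the libraries that express these genes.

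Of 14132 genes tested, 838 were higher in late KO than in early WT (5.93%) and 740 were lower (5.24%) at an adjusted *P* below 0.05. The median size of the change was 1.40 on the log2 scale among the genes that were higher and 1.12 among those that were lower, and 239 and 137 of them, respectively, changed by at least 2 on that scale. Called or not, 1965 of the genes tested (13.9%) had every late KO library above every early WT library, and 1880 (13.3%) had every one below. A lack of overlap between these groups is therefore common in itself. The size of the call set depended on single libraries. It was 540 genes without late KO replicate 3, 741 without late KO replicate 1, 829 without late KO replicate 2 and 862 without early WT replicate 2, against 1578 with all libraries, and 795 in the Y-expressing libraries only.

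In late WT against early WT of the same set, 983 genes were higher (6.96%) and 844 were lower (5.97%). Of the 983, 541 (55.0%) were also higher in late KO at the same threshold and 0 were lower. Of the 844, 428 (50.7%) were also lower in late KO and 0 were higher. Both comparisons use the 4 early WT libraries, and the genes were chosen by their call in late WT, so these counts are a description and not a test of agreement. Over the genes called in late WT, the median log2 fold change was 1.05 in late KO and 1.59 in late WT for the rises, and -0.84 and -1.01 for the falls. In the direct test of late KO against late WT, 6 genes passed (0.0425%; 1 higher, 0.00708%, and 5 lower, 0.0354%), and 1499 had an unadjusted *P* below 0.05. The 442 rises and 416 falls of late WT that did not pass in late KO are therefore not shown to be absent there.

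These 6 genes are named here because their number is small, 3 of them after their values were seen. Among the passage rises of late WT, 3 were lower in late KO than in late WT and are chemokines or other secreted proteins. The chemokine *Ccl9* was at 8.32, 7.45, 8.09 and 5.91 CPM in early WT, at 58.3, 23.1, 44.9 and 34.1 CPM in late WT, and at 9.48, 8.78 and 8.68 CPM in late KO. Late KO thus stayed near the early WT level (log2 fold change 0.27, SE 0.27, adjusted *P* = 0.542) and lay below late WT (log2 fold change -2.16, SE 0.28, adjusted *P* = 0.0204). The chemokine *Ccl4* showed the same pattern, with 1.65 to 4.31 CPM in early WT, 12.3 to 15.9 CPM in late WT and 2.30 to 3.09 CPM in late KO (late KO against late WT -2.34, SE 0.34, adjusted *P* = 0.0427). *Gm11428* (*Wfdc17* in RefSeq), which codes for a small secreted WAP-domain protein of macrophages, rose from 0.58 to 1.30 CPM in early WT to 48.9 to 83.1 CPM in late WT and reached only 3.98, 5.11 and 5.79 CPM in late KO (log2 fold change 2.36 against early WT, adjusted *P* = 0.000594, and -3.67 against late WT, adjusted *P* = 8.53e-05).

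The other genes of the 6 are *Rps6kb1* itself, *Slfn10-ps* and ENSMUSG00000093483.1, a gene without a symbol in the tables used. *Slfn10-ps*, a pseudogene of the Schlafen family, was at 2.17 to 3.36 CPM in early WT, 2.42 to 4.21 CPM in late WT and 0.481, 0.601 and 0.371 CPM in late KO (log2 fold change -2.45 against early WT, SE 0.36, adjusted *P* = 0.00211). ENSMUSG00000093483.1 was at 15.8, 15.4 and 19.4 CPM in late KO, against 2.0 to 7.21 CPM in early WT (log2 fold change 2.01, adjusted *P* = 0.0121) and 1.23 to 2.37 CPM in late WT. Without late KO replicate 3, its change against early WT did not pass (adjusted *P* = 0.0526). All 5 of the 6 genes that had a position lie on chromosome 11 with *Rps6kb1*, at 3.47 (*Slfn10-ps*), 2.93 (*Ccl9*), 2.85 (*Ccl4*) and 2.79 Mb (*Gm11428*) from its start. Within 10 Mb of *Rps6kb1*, 205 genes were tested. Loss of S6K1 and the chromosome segment around the targeted allele cannot be told apart for these genes. The summed level of macrophage markers, given below, was also lower in late KO (3844 to 5219 CPM) than in late WT (5769 to 11976 CPM). Its part in the levels of *Ccl9*, *Ccl4* and *Gm11428* was not tested. Against early WT, 12 of the 204 neighbours without *Rps6kb1* were higher and 17 lower in late KO (14.2%), beside 9.15% of the 874 tested genes on the rest of chromosome 11 and 11.4% of all 13042 genes with a position.

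**Figure D1:**
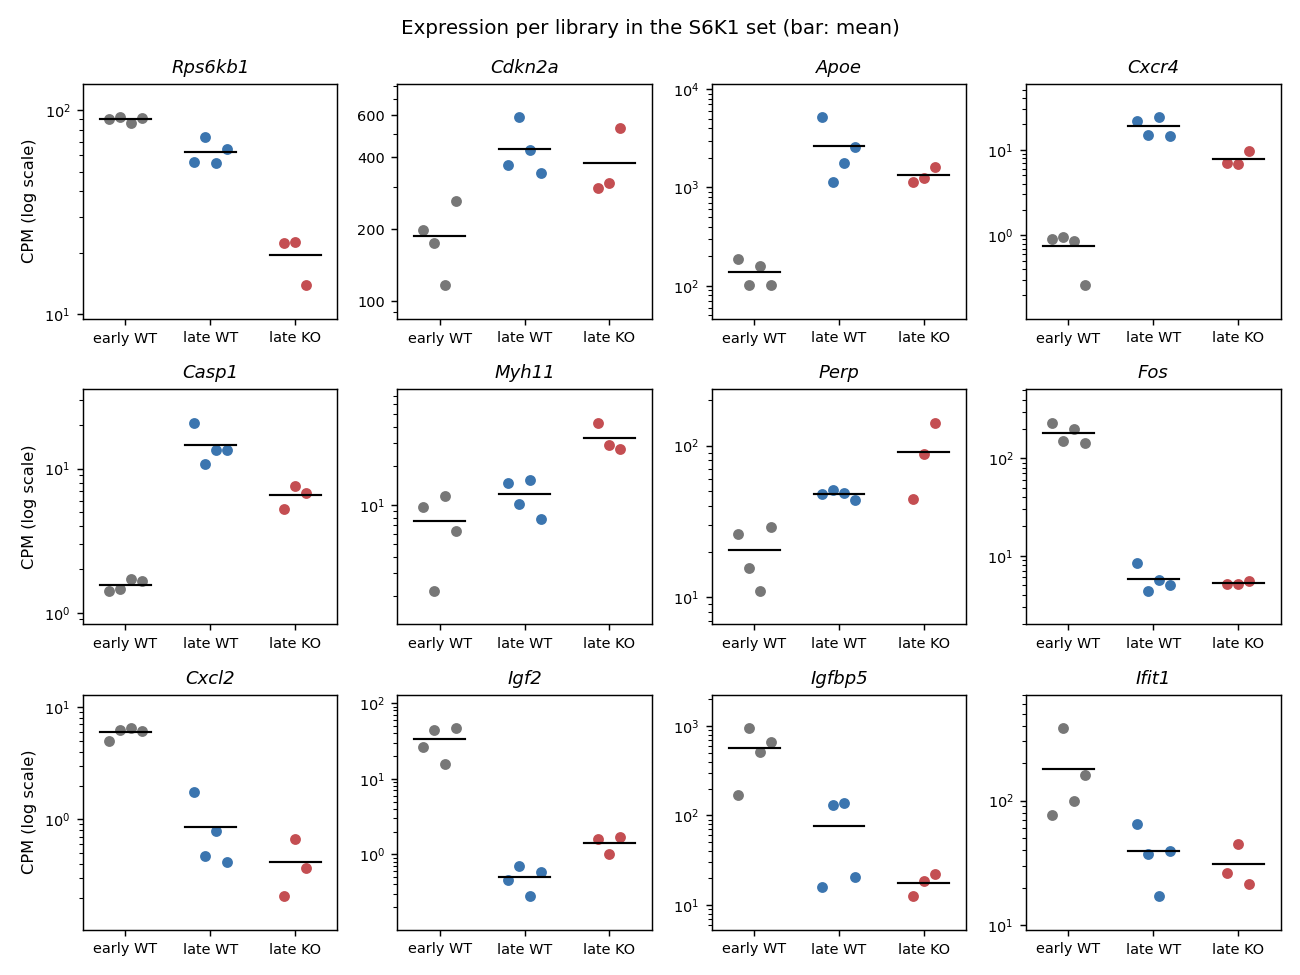
Level of 12 genes in each library of the *S6K1* set, in CPM on a log axis, with 1 point per library (4 early WT, 4 late WT, 3 late KO) and a bar at the mean. *Rps6kb1* is lowest in late KO, *Apoe*, *Cxcr4* and *Casp1* are raised in both late groups with late KO between early and late WT in the mean, and *Fos*, *Cxcl2*, *Igf2* and *Igfbp5* are below early WT in both late groups in the mean.

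*Cdkn2a*, the senescence locus of p16Ink4a and p19Arf, was at 199, 176, 117 and 262 CPM in early WT and at 297, 314 and 531 CPM in late KO. The groups did not overlap, and the 2.02-fold rise passed (log2 fold change 1.02, SE 0.29, adjusted *P* = 0.0431), although it was lost in 7 of the 11 fits that leave out 1 library, with the highest adjusted *P* at 0.193 without late KO replicate 3. Late WT was at 343 to 590 CPM. *Cdkn1a* (p21), a cell cycle inhibitor induced by p53, was at 513 to 662 CPM in early WT and 587 to 835 CPM in late KO (log2 fold change 0.33, adjusted *P* = 0.291). *Cdkn1c* (p57), an imprinted inhibitor, fell by 3.32 on the log2 scale (adjusted *P* = 0.0261), from 102 to 561 CPM to 26.4 to 37.6 CPM, and late WT was at 23.9 to 349 CPM. Its call was lost in 5 of the 11 fits that leave out 1 library (highest adjusted *P* = 0.0966, without late KO replicate 3). It was also lost without a filter (adjusted *P* = 0.126) and with a Y-linked covariate (adjusted *P* = 0.085). The list holds 24 tested cyclin-dependent kinase inhibitors, RB and E2F family members, G1 cyclins and their kinases. Of these, 1 rose and 1 fell (4.17% each, below the 5.93% and 5.24% of all genes), and 22 did not pass.

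Of 40 genes of mitosis, 9 fell in late KO (22.5%, against 5.24% of all genes), 0 rose and 31 did not pass, and all 40 had a negative log2 fold change (median -0.73, against -0.02 over all genes tested). *Cenpe*, a kinesin of the kinetochore, was at 43.0, 85.8, 51.8 and 81.0 CPM in early WT and at 26.5, 22.2 and 16.4 CPM in late KO, a 3.01-fold difference without overlap (adjusted *P* = 0.0113). *Cdc25c*, the phosphatase that starts mitosis, fell by 1.46 on the log2 scale (adjusted *P* = 0.00742), *Top2a*, which untangles chromosomes, by 1.34 (adjusted *P* = 0.0211) and the proliferation marker *Mki67* by 1.10 (adjusted *P* = 0.0404). Of 40 genes of DNA replication, 6 fell (15% against 5.24%), 0 rose and 34 did not pass (median -0.42), among the falls *Clspn*, a checkpoint mediator (-1.29), and *Rfc4*, a subunit of the clamp loader (-1.11). In the list of lamins and chromatin proteins of senescence, 5 of 19 fell (26.3% against 5.24%) and 0 rose, including *Hmgb2* (-1.75), *Hmgb1* (-1.18), *Ezh2* (-1.37) and *Lmnb1* (-1.11), the gene of lamin B1. *Lmnb1* was at 30.4 to 36.4 CPM in early WT and at 21.2, 13.3 and 10.2 CPM in late KO (adjusted *P* = 0.0381). These counts depended on single libraries: without late KO replicate 3, 1 mitosis gene and 0 replication genes passed, *Cenpe* had an adjusted *P* of 0.0622, and without late KO replicate 2, 0 of the lamins and chromatin proteins passed. Both early WT libraries without Y-linked expression (replicates 2 and 4) held more *Cenpe* than both with it, and in the Y-expressing libraries only, 4 mitosis and 2 replication genes passed. In late WT against early WT, 3 mitosis, 1 replication and 0 lamin and chromatin genes fell (medians -0.41, -0.25 and -0.30). With passage in the *S6K1/S6K2* set, 26, 4 and 2 fell (medians -0.74, -0.35 and -0.25). In these lists 0 genes passed between late KO and late WT, so a difference between the late groups is not shown. Of 27 p53 targets, 3 rose (11.1%, against 5.93% of all genes) and 0 fell, with *Perp*, a membrane protein of p53-dependent apoptosis, at 26.3, 15.6, 11.1 and 28.9 CPM in early WT and 44.4, 87.6 and 141 CPM in late KO (log2 fold change 2.16, SE 0.37, adjusted *P* = 0.00495). In the Y-expressing libraries, 0 p53 targets passed.

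The 10 largest rises in late KO include myeloid genes and genes with few counts in early WT. *Apoe*, the apolipoprotein that macrophages also make, was at 188, 102, 158 and 101 CPM in early WT and at 1138, 1254 and 1625 CPM in late KO, a 9.75-fold rise (log2 fold change 3.29, SE 0.45, adjusted *P* = 0.00137). *Cxcr4*, the receptor of the chemokine CXCL12, was at 0.896, 0.949, 0.860 and 0.261 CPM in early WT and 7.07, 6.80 and 9.79 CPM in late KO (log2 fold change 3.36, adjusted *P* = 0.000272). The myeloid receptors *Clec12a* and *Cd300lb* rose by 3.17 and 3.28 on the log2 scale (adjusted *P* = 0.000272 and 0.00182). In all 4 of these genes late WT means were higher than late KO means. Separate library values were a condition for the 10 largest rises, so they add nothing here. *Lce1g* (6.24) and *Ivl* (4.17), genes of the cornified envelope of skin, and *Tnfsf18* (5.63), the ligand of GITR, had the largest fitted log2 fold changes, but their early WT libraries held 0 to 14 counts of each. Late KO replicate 3 stood above the rest of its group in these genes, with 19.7 CPM of *Lce1g* against 1.58 and 2.59 CPM in replicates 1 and 2, and 16.5 CPM of *Ivl* against 2.75 and 4.39 CPM. The cardiac natriuretic peptide gene *Nppb* (3.17), the retinol carrier gene *Rbp4* (3.13) and *BC055004* (3.52) completed the 10 largest rises, and the call of *Rbp4* was lost in 6 of the 11 fits that leave out 1 library (highest adjusted *P* = 0.128, without late KO replicate 3).

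Of the 22 markers of the macrophage list that were tested (of 24 listed), 20 rose (90.9%, against 5.93% of all genes) and 0 fell in late KO (median log2 fold change 2.20). *Csf1r*, the receptor of macrophage colony-stimulating factor, was at 16.8, 16.4, 23.3 and 12.7 CPM in early WT and at 68.1, 108 and 77.0 CPM in late KO (log2 fold change 2.28, SE 0.35, adjusted *P* = 0.00247). *Lyz2*, the lysozyme of myeloid cells, rose by 2.60 on the log2 scale (adjusted *P* = 0.00137), *Tyrobp*, a signaling adaptor, by 2.57 (adjusted *P* = 0.000893) and *Trem2*, a lipid-sensing receptor, by 2.71 (adjusted *P* = 0.000594). The mannose receptor *Mrc1* (log2 fold change 0.38, adjusted *P* = 0.474) and the fractalkine receptor *Cx3cr1* (1.31, adjusted *P* = 0.0785) did not pass. The summed level of the list ran from 575 to 1199 CPM in early WT, from 3844 to 5219 CPM in late KO and from 5769 to 11976 CPM in late WT, so that the late KO range lay between both WT ranges without overlap. In the *S6K1/S6K2* set it ran from 661 to 2231 CPM in early WT and from 8385 to 14235 CPM in late WT, where 22 of 22 markers rose. The count of rising markers was 17 to 21 when 1 library was left out and 21 in the Y-expressing libraries. The 9 markers of T and B cells summed to at most 0.344 CPM in any of the 7 libraries. In bulk RNA, more cells of a type and more RNA per cell cannot be told apart.

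Of the 14 fibroblast markers, 5 fell (35.7%, against 5.24% of all genes) and 0 rose in late KO, and 9 did not pass. *Pdgfra*, a receptor of platelet-derived growth factor, was at 36.1, 134, 124 and 79.4 CPM in early WT and 17.4, 15.9 and 7.27 CPM in late KO (log2 fold change -2.78, SE 0.68, adjusted *P* = 0.0232), and *Col1a1* and *Col1a2*, the chains of type I collagen, fell by 1.21 and 1.30 on the log2 scale. The summed level was 24617 to 34124 CPM in early WT and 17598 to 20297 CPM in late KO, so the cells of both groups had the defining genes of fibroblasts. The count of falls was 0 without late KO replicate 2. Among the 6 epithelial and mesothelial markers tested, *Msln* (-3.18) and *Krt19* (-2.33) fell and *Cdh1* rose (3.88, from 0 to 0.105 CPM in early WT to 0.662 to 1.11 CPM in late KO). Few markers of other cell types passed the filter, and 0 of 3 skeletal muscle and 0 of 4 cartilage markers passed the test. Of 3 endothelial markers only *Emcn* passed (2.25), while 2 had a negative log2 fold change (median -0.86). Of 6 neural markers only *Tubb3* passed (1.53), while 4 had a negative log2 fold change (median -0.20). Of 3 adipocyte markers only *Pparg* passed (1.71, median of the list 0.04). A rise of these lists is therefore not shown.

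**Figure D2:**
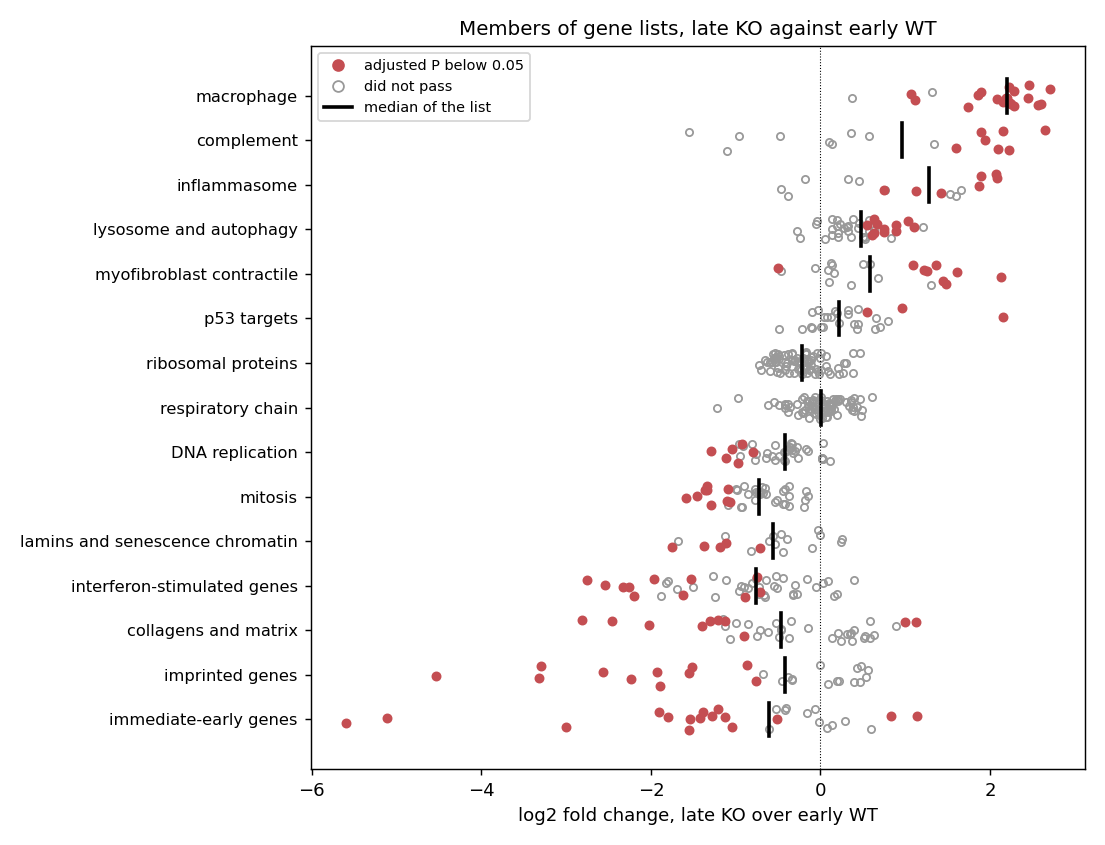
Log2 fold change of late KO over early WT for every tested member of 15 gene lists, with filled points for members that passed at an adjusted *P* below 0.05 and a bar at the median of the list. The macrophage list (20 of 22 passing) lies farthest to the right, and ribosomal proteins (77 tested) and the respiratory chain (79 tested) have 0 members that passed.

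Of 16 complement genes tested, 7 rose (43.8%, against 5.93% of all genes) and 0 fell (median 0.96), and 4 of the 7 are not on the macrophage list. *C3ar1*, the receptor of the C3a anaphylatoxin, was at 8.38, 10.8, 13.5 and 8.42 CPM in early WT and at 53.8, 73.9 and 66.3 CPM in late KO, a 6.28-fold rise (adjusted *P* = 0.000594). *C1qc*, a chain of the first complement component, rose 4.66-fold (adjusted *P* = 0.00103). Of 16 inflammasome genes tested, 7 rose (also 43.8%) and 0 fell (median 1.27). *Casp1*, the protease that matures interleukin-1 beta, was at 1.42, 1.46, 1.72 and 1.65 CPM in early WT and at 5.29, 7.58 and 6.82 CPM in late KO, a 4.19-fold rise (log2 fold change 2.07, SE 0.26, adjusted *P* = 0.000893). *Nlrc4*, an inflammasome scaffold, rose by 2.08 on the log2 scale, but its call was lost in 9 of the 11 fits that leave out 1 library (highest adjusted *P* = 0.172, without late KO replicate 3). The inflammasome count was 3 without early WT replicate 2. Of 42 lysosome and autophagy genes, 11 rose (26.2% against 5.93%) and 0 fell (median 0.48), led by *Gabarapl2* (1.11) and *Gabarapl1* (1.03) of the autophagosome membrane and *Ctsf* and *Ctsl* (0.89 each), which are lysosomal proteases. That count was 3 without late KO replicate 3 and 4 in the Y-expressing libraries. The part of the macrophage markers in these lists was not tested.

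Of 42 chemokine and cytokine ligands tested, 5 rose (11.9%, against 5.93% of all genes) and 2 fell (4.76%, below the 5.24% of all genes). In late WT against early WT, 11 of these 42 ligands rose and 4 fell, beside 6.96% and 5.97% of all genes. The median log2 fold change of the list was 0.24 in late KO and 0.16 in late WT. In the direct test of late KO against late WT, 2 of the 42 passed, so a weaker rise of the list as a whole in late KO is not shown. *Cxcl16*, a transmembrane chemokine, was at 10.7, 14.8, 17.1 and 15.5 CPM in early WT and at 46.3, 64.2 and 71.1 CPM in late KO (log2 fold change 2.06, adjusted *P* = 0.00116), and late WT was at 66.0 to 144 CPM. *Il7*, a lymphocyte survival factor, rose by 1.86 (adjusted *P* = 0.0098), *Csf1*, the growth factor of macrophages, by 1.04, *Ccl8* by 0.98 and *Ccl17* by 3.69 from at most 0.172 CPM in early WT. *Cxcl2*, a neutrophil chemokine, was at 5.01, 6.21, 6.48 and 6.17 CPM in early WT and 0.206, 0.662 and 0.371 CPM in late KO, 14.0-fold lower (log2 fold change -3.80, SE 0.53, adjusted *P* = 0.00158). *Cxcl10*, an interferon-induced chemokine, fell by 2.23 (adjusted *P* = 0.00848). *Cxcl2* and *Cxcl10* also fell in late WT against early WT (log2 fold change -2.78 and -2.24, adjusted *P* = 0.00154 and 0.00259). Neither passed between late KO and late WT (adjusted *P* = 0.543 and 0.997). *Il6* was at 5.85, 1.83, 7.63 and 2.08 CPM in early WT and at 13, 8.42 and 14.3 CPM in late KO, separate in range but not past the threshold (log2 fold change 1.43, SE 0.57, adjusted *P* = 0.123). *Il1a* held 0 or 1 counts in each of the 7 libraries and *Il1b* 0 to 6 counts in early WT and 1 to 6 counts in late KO. Both were left out by the filter, so no difference was tested. In late WT of the same set, *Il1b* held 0 to 5 counts, and in late WT of the *S6K1/S6K2* set 16 to 30 counts. Early WT of that set held 0 or 1 counts, and the rise there passed (log2 fold change 5.38, SE 0.77, edgeR adjusted *P* = 0.00131). The counts of late KO show no rise of that size. Of 26 metalloproteinase and plasminogen genes, 4 rose (15.4%, against 5.93%) and 1 fell (3.85%, below 5.24%), with the macrophage elastase *Mmp12* at 1.48 to 3.90 CPM in early WT and at 21.2, 8.24 and 17.1 CPM in late KO (log2 fold change 2.76, adjusted *P* = 0.00182).

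Of 45 interferon-stimulated genes tested, 11 fell in late KO (24.4%, against 5.24% of all genes), 0 rose and 34 did not pass, and 40 of the 45 had a negative log2 fold change (median -0.76). *Ifit1*, which binds viral RNA, was at 76.6, 382, 100 and 161 CPM in early WT and at 26.3, 45.1 and 21.4 CPM in late KO, 5.80-fold lower without overlap (log2 fold change -2.54, SE 0.58, adjusted *P* = 0.0179). *Mx2* (-2.75), a dynamin-like antiviral GTPase, *Rsad2* (-2.33), which makes a chain-terminating nucleotide, and *Isg15* (-2.20), a ubiquitin-like modifier, fell with it. Early WT replicate 2 was the highest library in all of *Ifit1*, *Mx2*, *Rsad2* and *Isg15*. In late WT against early WT, 12 of the 45 fell and 0 rose (median -0.65), and in the *S6K1/S6K2* set 30 fell and 0 rose. The number of falls in late KO was 2 without late KO replicate 3, where *Ifit1* had an adjusted *P* of 0.0872, and 10 in the Y-expressing libraries. Of 15 genes of MHC class I presentation, 0 passed.

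Promoters of interferon-stimulated genes that fell are shown where they hold the core of the interferon-stimulated response element (ISRE), the site through which interferon acts on many of these genes. Of the 45 genes, 33 matched a promoter in the RefSeq table (GRCm38.p6), and 13 of these (39.4%) held the ISRE core (GAAA, any 2 bases and GAAA again) on either strand in the 250 bases before the start, against 3.20% of the 9277 tested genes with a promoter and 2.98% of all 32851 promoters. Of the 11 that fell, 7 matched and 4 held it. These 4 promoters are printed 5′ to 3′ on the strand of the gene, each match in capitals (overlapping matches run together): *Ifit1* at chr19:34640639-34640888 (plus strand), *Rsad2* at chr12:26456453-26456702 (minus strand), *Isg15* at chr4:156200819-156201068 (minus strand) and *Gbp3* at chr3:142559794-142560043 (plus strand).
Ifit1: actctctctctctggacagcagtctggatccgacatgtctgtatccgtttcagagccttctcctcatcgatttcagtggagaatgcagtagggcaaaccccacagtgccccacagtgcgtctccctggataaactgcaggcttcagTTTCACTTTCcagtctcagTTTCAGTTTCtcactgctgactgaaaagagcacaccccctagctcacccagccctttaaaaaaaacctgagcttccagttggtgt
Rsad2: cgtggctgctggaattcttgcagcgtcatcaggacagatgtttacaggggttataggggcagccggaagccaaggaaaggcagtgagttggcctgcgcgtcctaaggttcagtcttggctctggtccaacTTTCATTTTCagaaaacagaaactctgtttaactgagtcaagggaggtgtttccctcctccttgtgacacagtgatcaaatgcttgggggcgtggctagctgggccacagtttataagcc
Isg15: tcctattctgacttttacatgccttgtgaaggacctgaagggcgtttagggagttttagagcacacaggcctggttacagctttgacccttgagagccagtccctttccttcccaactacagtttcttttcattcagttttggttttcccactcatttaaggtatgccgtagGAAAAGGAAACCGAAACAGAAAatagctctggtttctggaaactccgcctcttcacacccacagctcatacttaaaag
Gbp3: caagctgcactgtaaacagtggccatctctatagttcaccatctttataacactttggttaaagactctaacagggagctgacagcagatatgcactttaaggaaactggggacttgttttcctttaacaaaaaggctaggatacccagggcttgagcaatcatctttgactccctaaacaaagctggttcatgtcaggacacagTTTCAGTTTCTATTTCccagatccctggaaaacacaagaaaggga

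*Ifit1* holds 2 separate matches, at 104 to 95 and 85 to 76 bases before its start, *Rsad2* holds 1, *Isg15* holds 3 that overlap and *Gbp3* holds 2 that overlap. A second promoter of *Gbp3* in the table held 0. Mitosis genes shared a different letter pattern: CCAAT on either strand, the core of the box that the factor NF-Y binds, was in the promoter of 25 of 34 matched mitosis genes (73.5%), and in 8 of the 8 matched members that fell, against 40.6% of the tested genes. Matched members that fell are shown as examples, with CCAAT in capitals. They are not the largest falls of the list, because a mitosis gene named above fell more than *Cenpf*. The examples are *Cenpe* at chr3:135212313-135212562 (plus strand, 1 match) and *Cenpf*, a kinetochore protein that fell by 1.37 on the log2 scale, at chr1:189688087-189688336 (minus strand, 2 matches).
Cenpe: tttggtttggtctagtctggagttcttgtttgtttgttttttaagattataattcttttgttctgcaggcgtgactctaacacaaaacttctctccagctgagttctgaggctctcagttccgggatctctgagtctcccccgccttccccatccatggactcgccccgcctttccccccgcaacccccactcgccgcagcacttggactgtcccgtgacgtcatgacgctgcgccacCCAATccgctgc
Cenpf: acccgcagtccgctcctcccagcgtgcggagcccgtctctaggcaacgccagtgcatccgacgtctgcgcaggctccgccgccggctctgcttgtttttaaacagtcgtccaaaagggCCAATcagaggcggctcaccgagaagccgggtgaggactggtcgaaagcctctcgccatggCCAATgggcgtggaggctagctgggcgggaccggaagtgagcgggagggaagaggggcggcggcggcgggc

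Of 27 immediate-early genes, which are transcribed within minutes of a growth or stress signal, 14 fell in late KO (51.9%, against 5.24% of all genes) and 2 rose (7.41%, against 5.93%). *Fos* (chr12:85473890-85477274), a subunit of the factor AP-1, was at 232, 152, 200 and 143 CPM in early WT and at 5.08, 5.17 and 5.49 CPM in late KO, 34.6-fold lower (log2 fold change -5.11, SE 0.28, adjusted *P* = 3.9e-06). *Fosb* (chr7:19302696-19310118) was at 64.1 to 97.9 CPM and at 1.79, 0.842 and 2.15 CPM, 48.5-fold lower (log2 fold change -5.60, SE 0.33, adjusted *P* = 4.12e-06). *Egr1*, a zinc-finger factor, was at 364 to 518 CPM and 50.6 to 57.4 CPM, 8.03-fold lower. *Junb* (-1.54), *Jun* (-1.28) and the nuclear receptor gene *Nr4a1* (-1.79) fell as well, and *Mafk* (0.84) and *Maff* (1.14) rose. Late WT was as low, with 4.38 to 8.34 CPM of *Fos*. The number of falls was 9 to 14 when 1 library was left out, whereas 0 rises passed without late KO replicate 3 and the call of *Mafk* was lost in 8 of the 11 fits (highest adjusted *P* = 0.124, without late KO replicate 1).

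The summed level of the 28 listed immediate-early genes separated early from late libraries in both sets, in opposite directions. It ran from 2640 to 2871 CPM in early WT, 1206 to 1526 CPM in late KO and 1334 to 1453 CPM in late WT. In the *S6K1/S6K2* set the order was the opposite, with 1171 to 1456 CPM in early WT, 2606 to 3005 CPM in late WT and 2810 to 3202 CPM in late DKO, the 3 libraries of passage 8 MEFs that lack both kinases. The labels give no time of harvest or of the last medium change. There, 17 of the genes rose with passage and 0 fell.

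**Figure D3:**
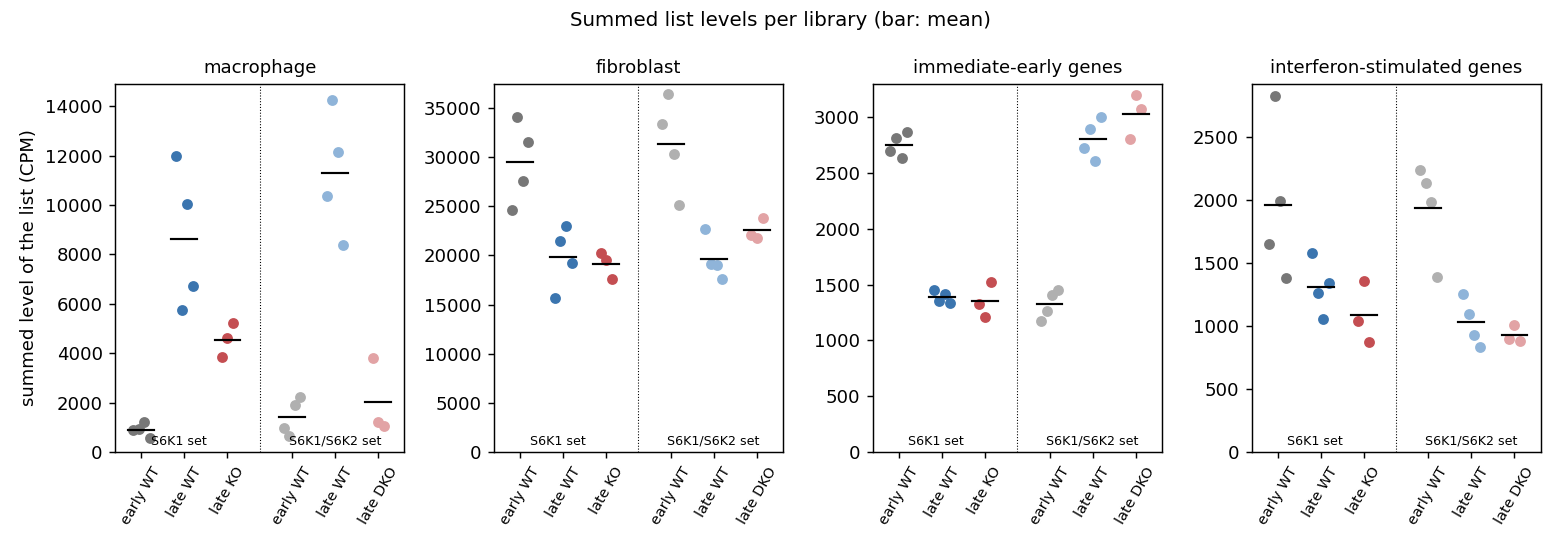
Summed level of 4 gene lists in each of the 22 libraries, in CPM, with a bar at the mean of the group; the 3 groups left of the dotted line are the *S6K1* set and the 3 groups right of it the *S6K1/S6K2* set. Macrophage markers are above early WT in every late KO library, interferon-stimulated genes are lower in both late groups in the mean, and immediate-early genes are high in early WT of one set and in both late groups of the other.

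Of 16 genes of the IGF system, 5 fell (31.2%, against 5.24% of all genes) and 2 rose (12.5%, against 5.93%) in late KO. *Igf2* (chr7:142650768-142666816), the fetal growth factor, was at 26.7, 43.7, 15.9 and 46.5 CPM in early WT and at 1.58, 1.02 and 1.71 CPM in late KO, 23.1-fold lower (log2 fold change -4.53, SE 0.42, adjusted *P* = 0.00024). *Igfbp5*, a secreted IGF-binding protein, was at 170, 945, 516 and 655 CPM in early WT and 12.5, 18.4 and 22 CPM in late KO, 32.4-fold lower (log2 fold change -5.02, SE 0.89, adjusted *P* = 0.00585). *Igf1*, the postnatal growth factor, rose 2.03-fold, from 22.9, 56.5, 48.4 and 47.4 CPM to 85.7, 85.3 and 95.2 CPM (adjusted *P* = 0.0267), below the 116 to 187 CPM of late WT, and its call was lost without late KO replicate 3 (adjusted *P* = 0.0947). Of 26 imprinted genes tested (of 35 listed), 11 fell (42.3%, against 5.24% of all genes) and 0 rose (median -0.42). They include the maternally silenced *Mest* (-3.29), *Slc38a4* (-2.56), *Usp29* (-2.24) and *Peg3* (-1.54), and the maternally expressed *Cdkn1c* (-3.32), *Meg3* (-1.90) and *H19* (-1.92), a long noncoding RNA. *H19* was at 2010 to 2913 CPM in early WT and 556, 1166 and 207 CPM in late KO. In late WT, 7 of the 26 fell and 0 rose. The count in late KO was 4 without late KO replicate 3. Outside these lists, *Tmem26* (-5.39), *Ndufa4l2* (-5.17), a subunit-like protein induced by hypoxia, *Angptl7* (-4.23), *Megf6* (-3.81) and *Erg* (-3.77), an ETS factor of endothelium and cartilage, were among the 10 largest falls. Each of them was also lower in late WT, with log2 fold changes between -4.57 and -2.57.

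Of 40 collagens and matrix genes, 8 fell (20%, against 5.24% of all genes) and 2 rose (5%, against 5.93%; median -0.47). Elastin (*Eln*, -2.81), *Col7a1* (-2.46) and *Col6a3* (-2.02) fell, and the collagen crosslinker *Lox* (0.99) and thrombospondin 1 (*Thbs1*, 1.13) rose. The calls of *Eln* and *Thbs1* were lost in 4 and 7 of the 11 fits that leave out 1 library, with the highest adjusted *P* at 0.0957 (without late KO replicate 3) and 0.122 (without late KO replicate 1). Of 21 genes of the myofibroblast contractile list, 8 rose (38.1%, against 5.93% of all genes) and 1 fell (median 0.58), while in late WT against early WT 0 rose and 1 fell (median 0.11), and in the *S6K1/S6K2* set 0 passed. *Myh11*, the smooth muscle myosin heavy chain, was at 9.64, 2.19, 11.8 and 6.34 CPM in early WT, 7.81 to 15.8 CPM in late WT and 43.2, 29.0 and 27.0 CPM in late KO (log2 fold change 2.13, SE 0.43, adjusted *P* = 0.0102). *Tagln*, an actin crosslinker, rose by 1.26 (adjusted *P* = 0.00534), *Acta2*, smooth muscle actin, by 1.09 (adjusted *P* = 0.0246) and *Ctgf*, a secreted target of YAP and TGF-beta, by 1.48 (adjusted *P* = 0.0103). None of the 21 passed in the direct test of late KO against late WT, so this difference between late KO and late WT is not shown. The count of rises was 4 without late KO replicate 3. Of 30 genes of the TGF-beta and activin system, *Fst* (1.38), which binds activin, rose and *Tgfbi* (-2.05) fell (3.33% each, below the 5.93% and 5.24% of all genes). Both had no call when late KO replicate 3 was left out (adjusted *P* = 0.0635 and 0.0541).

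In the list of 24 S6 kinases and substrates, 3 fell (12.5%, against 5.24% of all genes) and 1 rose (4.17%, below the 5.93% of all genes). The falls were *Rps6kb1*, *Eprs* (-0.78) and *Tsc1* (-0.72), and the rise was *Rheb*, the GTPase that activates mTORC1 (0.81). The calls of *Eprs* and *Rheb* were lost in 10 and 7 of the 11 fits that leave out 1 library (highest adjusted *P* = 0.168 and 0.132). Of 77 ribosomal protein genes and 79 respiratory chain genes, 0 passed in edgeR in either direction, and *Rrp1b* (-0.93) was the only one of 39 ribosome biogenesis genes that passed. Among the ribosomal protein genes, 63 had a negative log2 fold change (median -0.22, against -0.02 over all genes tested). Their median was -0.07 in late WT against early WT and 0.39 with passage in the *S6K1/S6K2* set. The respiratory chain median in late KO was 0.01. Of 33 genes of cholesterol and fatty acid synthesis, 7 fell (21.2%, against 5.24% of all genes) and 0 rose, among them genes of the fatty acid branch (*Elovl6* -1.63, *Scd1* -1.18, *Fads2* -1.13, *Scd2* -1.09, *Acaca* -0.86, *Fads1* -0.73). *Scd1*, the stearoyl-CoA desaturase, was at 119, 117, 156 and 102 CPM in early WT and 55.8, 64.5 and 43.5 CPM in late KO (adjusted *P* = 0.00292). Of 23 NRF2 targets, 5 rose (21.7%, against 5.93%), among them the ferritin heavy chain *Fth1* (1.05) and *Nqo1* (0.82), and 2 fell, the cystine transporter *Slc7a11* (-1.71) and *Gsr* (-0.51). The number of rises was 0 without late KO replicate 3. Of 29 ATF4 targets, 4 fell (13.8%, against 5.24%) and 0 rose, led by *Aldh1l2* (-1.78), a mitochondrial folate enzyme (adjusted *P* = 0.00739). Among 32 genes of glycolysis and hypoxia, *Adm* (1.17) rose and *Eno2* (-0.84) fell (3.12% each). Among 20 genes of cGAS-STING and NF-kappa-B signaling, *Ikbkg* (0.49) rose and *Nfkbiz* (-1.57) fell (5% each). *Hoxc5* (1.74) and *Hoxa4* (1.86) rose among 31 Hox genes (6.45%). These shares are near or below those of all genes (5.93% higher and 5.24% lower). The calls of *Adm* and *Ikbkg* were lost in 10 and 6 of the 11 fits that leave out 1 library (highest adjusted *P* = 0.180 and 0.140), and also without a filter, with 2 groups and with the Y-linked covariate. That of *Hoxa4* was lost in 4 of the 11 fits (highest adjusted *P* = 0.0929). It was also lost with the Y-linked covariate (adjusted *P* = 0.0577) and in the Y-expressing libraries (adjusted *P* = 0.0923).

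The *S6K1/S6K2* set gave a passage change in WT cells that shares no library with late KO or its controls. There, 1190 of 14365 genes were higher in late WT than in early WT (8.28%) and 702 were lower (4.89%). Among the 13898 genes tested in both sets, 823 rose in late KO and 1158 with passage in that set, and 411 rose in both, which is 49.9% of the first list and 35.5% of the second, against 8.33% of all genes that rose there. Of 728 falls in late KO and 691 in that set, 200 were shared, 27.5% and 28.9% of the lists, against 4.97% of all genes. A further 8 of the rises and 25 of the falls of late KO passed in the opposite direction. Across the 13898 genes, Pearson's r of the log2 fold changes was 0.554 and Spearman's rho 0.429; genes are not independent replicates.

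The difference between the changes of the 2 sets passed for 121 of 14886 genes, 42 higher (0.282%) and 79 lower (0.531%) in late KO. Genotype and set differ together in this test and cannot be told apart. *Fos* rose in the *S6K1/S6K2* set from 3.66 to 7.61 CPM to 168 to 295 CPM (log2 fold change 5.54), and its change in late KO minus that change was -10.61 (SE 0.42, adjusted *P* = 1.03e-12). *Fosb* (-11.09), *Cxcl2* (-8.58) and *Egr1* (-4.55) had the same reversal. In late WT against early WT of the *S6K1* set, *Fos* (-4.96), *Fosb* (-5.85) and *Cxcl2* (-2.78) fell as well. Genes that rose in late KO and not in that set were *Avpr1a*, the vasopressin receptor, with 3.99 to 8.27 CPM in early WT and 32.6, 40.4 and 21.4 CPM in late KO (difference 2.95, SE 0.44, adjusted *P* = 0.000783), *Lclat1*, an enzyme of cardiolipin remodeling (1.54, adjusted *P* = 0.00226), and *Ap3m2*, an adaptor subunit (1.35, adjusted *P* = 0.0001). *Avpr1a*, *Lclat1* and *Ap3m2* are not among the 6 genes that differed between late KO and late WT. *Ccl4*, which rose there from 0.806 to 4.27 CPM to 13.7 to 28.2 CPM and did not rise in late KO, differed by -3.04 (SE 0.68, adjusted *P* = 0.0326), a call lost in 10 of the 15 fits that leave out 1 library. The differences of *Ccl9* (-1.11, adjusted *P* = 0.337) and *Gm11428* (-2.38, adjusted *P* = 0.196) did not pass. The number of genes that differed was 552 without early WT replicate 1 and 70 without late KO replicate 1.

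**Figure D4:**
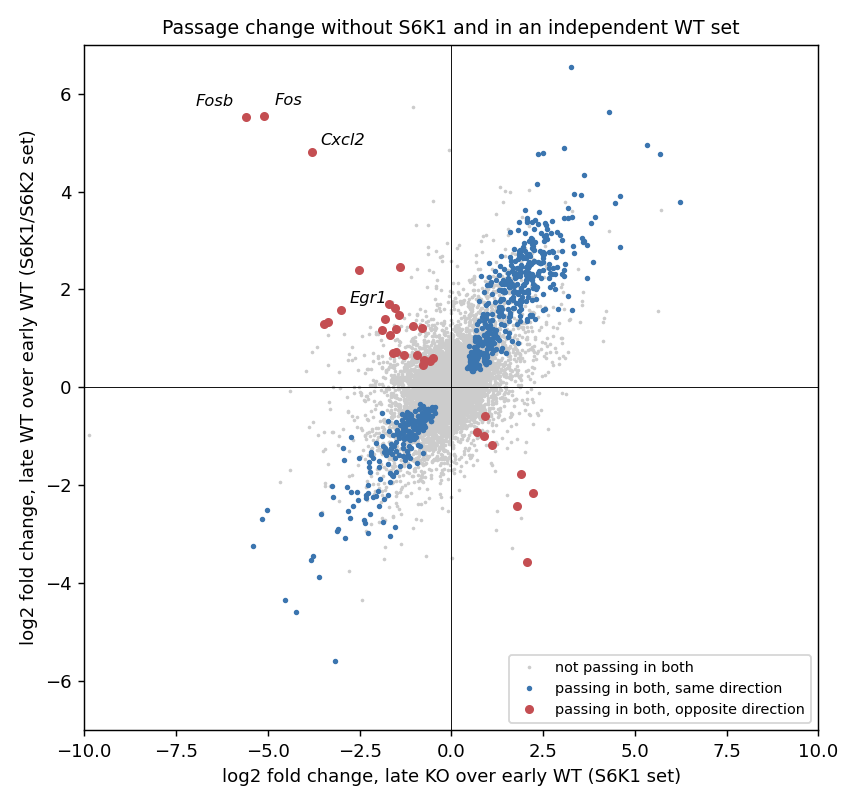
Log2 fold change of late KO over early WT (horizontal) against that of late WT over early WT in the *S6K1/S6K2* set (vertical) for 13898 genes, with 1 point per gene. Blue points (611) passed in both in the same direction, red points (33) passed in both in opposite directions, and *Fos*, *Fosb*, *Cxcl2* and *Egr1* lie at the upper left, low in late KO and raised with passage in the other set.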

How the data were processed

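RNA-seq of 22 MEF libraries was used, in 6 groups taken from the sample labels. Each library was 1 replicate, and none was pooled. Replicates were compared by chi-square of their counts, which was at least 20.6 times its degrees of freedom in every within-group pair, so no library was counted as a duplicate.

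The authors prepared stranded mRNA libraries and sequenced single-end reads. The deposited values are raw counts per gene, with no normalization, for 55401 identifiers. The submitters' processing notes name CASAVA, STAR 2.7.1a, the mm10 build and DESeq2 1.28.1, whereas the methods name TopHat, mm9 and HTSeq. Of the identifiers, 22812 are absent from an mm9 annotation, so positions and promoters were taken from RefSeq (GRCm38.p6) by symbol. The strand setting of the counting is not given in the sources used here. Symbols covered 32589 identifiers and 97.0% of the counts.

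Genes were filtered with filterByExpr, scaled by TMM and tested with edgeR 4.0.16 (R 4.3.3) by the quasi-likelihood *F* test with robust estimation, with Benjamini-Hochberg adjustment over all genes tested and a threshold of 0.05. The 3 groups of a set were fitted together. The difference between the changes of the 2 sets was tested in 1 fit of all 22 libraries. CPM were computed with TMM-scaled library sizes, and list medians are of log2 fold changes. The pipeline was tested on 3 simulated data sets: of 200 genes changed in late KO, edgeR found 24% to 34% of those changed by 1 and 74% to 83% of those changed by 2 on the log2 scale, and false calls made up 6.45% to 7.55% of what it called. With DESeq2 these shares were 49% to 56%, 83% to 90% and 21.9% to 23.1%. In the data 1578 genes passed, and the shares can differ when more genes change than were simulated.

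Genes named are *Rps6kb1*, *Rps6kb2*, *Cdkn2a*, *Cdkn1a*, *Il1a*, *Il1b* and *Il6*, the 10 largest rises and falls with separate groups and at least 5 CPM, the 2 largest rises and falls of each list with at least 1 CPM, genes that also differ from late WT, and the genes of smallest *P* for the difference between sets. *Ccl9*, *Ccl4*, *Gm11428* and the other list members given as examples were chosen after their values were seen. The comparison, lists and rule were chosen with earlier results of these data known. Alternatives were DESeq2 1.42.0, its size factors in edgeR (RLE), no filter, only the 2 groups, all 22 libraries in 1 fit, a Y-linked covariate, leaving out each library and, chosen after seeing the data, only the 6 Y-expressing libraries of the *S6K1* set. Only these MEF libraries were analysed.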

Additional observations from a re-analysis of the deposited data

Results flagged for a closer look

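The change in late KO differed from the passage change of the *S6K1/S6K2* set in the edgeR test of the difference for 11 named genes. Genotype and set cannot be told apart in that test. On the log2 scale the difference (late KO change minus the other) was -11.09 for *Fosb*, -10.61 for *Fos*, -8.58 for *Cxcl2*, -4.55 for *Egr1*, -3.04 for *Ccl4*, -2.06 for *Rps6kb1*, the deleted gene, and -1.93 for *Nfkbiz*, an NF-kappa-B cofactor. The calls of *Ccl4* and *Nfkbiz* were lost in 10 and 8 of the 15 fits that leave out 1 library, and those of the other 9 genes in 0. The difference was 3.37 for ENSMUSG00000093483.1, 2.95 for *Avpr1a*, 1.54 for *Lclat1* and 1.35 for *Ap3m2*. *Fos*, *Fosb* and *Egr1* are members of the immediate-early list, so its summed level is not independent of their opposite change. That sum was high in early WT of the *S6K1* set and low in early WT of the other set. In late DKO of that set, *Fos* was at 214, 278 and 342 CPM.

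Among 184 gene and group pairs of 4 libraries, 7 had a library far from the rest; about 1 in 20 such groups is singled out by chance. In early WT these were *Cxcr4* in replicate 4 (0.261 CPM, the others from 0.860 to 0.949 CPM), *Tmem26* in replicate 2 (12.9 CPM, the others from 2.69 to 4.24 CPM) and *Nfkbiz* in replicate 1 (52.5 CPM, the others from 76.1 to 79.8 CPM). In late WT they were *Nppb* in replicate 1 (10.8 CPM, the others from 4.98 to 5.86 CPM), *Angptl7* in replicate 1 (2.53 CPM, the others from 0.280 to 0.332 CPM) and *Rrp1b* in replicate 4 (17.4 CPM, the others from 9.03 to 9.92 CPM). In early WT of the *S6K1/S6K2* set it was *Fosb* in replicate 2 (3.10 CPM, the others from 1.40 to 1.5 CPM).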

How the results depend on the processing

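The number of genes that passed between late KO and early WT (1578) was 2675 with DESeq2, 2564 with all 22 libraries in 1 fit and 795 in the Y-expressing libraries only, and between 1231 and 1596 under the 4 remaining alternatives; leaving out 1 library gave 540 (without late KO replicate 3) to 2055 (without early WT replicate 1). The passage count of the *S6K1/S6K2* set (1892) was 2845 with DESeq2 and 885 to 2247 with 1 library left out, the count of shared genes (611) was 1059 with DESeq2 and 300 to 736, and the count of genes that differed between the sets (121) was 362 with DESeq2 and 70 to 552. The fall of *Rps6kb1* kept its call under every alternative run, with -2.29 to -2.0 on the log2 scale when 1 library was left out. Of 81 named genes that passed, 0 changed sign and 34 passed under every alternative run; DESeq2, RLE scaling and the fit of all libraries lost 0 of them, the fit without a filter 13, the fit of 2 groups 14, the Y-linked covariate 11 and the Y-expressing libraries 32. The change of *Ccl4* against early WT, which did not pass, was 0.10 and 0.07 on the log2 scale without early WT replicates 2 and 3 and -0.32 without early WT replicate 4. No paired analysis was possible because the labels give library codes and no replicate numbers shared between groups. The fit assumes that a group left with fewer libraries varies like the others.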
